A study of Mus musculus with 16 samples.

Results

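Liver transcripts of mice that drank antibiotic water were compared 4 h after a gavage of fast food slurry or of chow slurry. The comparison holds 8 of the 16 libraries of the series, 4 for each meal, chosen by their labelled meal and drinking water and by no measured value. All 13180 genes that passed the filter on low counts were tested, of 25006 gene identifiers counted. Both groups are C57BL/6 mice, an inbred laboratory strain with no engineered allele in the labels. Mice were assigned to the water at random and gavaged once with the slurry, so the groups share the antibiotic water and the gavage and differ in the meal. The other 8 libraries come from mice on control water with the same meals, and they serve here for the estimate of the spread and for a test of whether the meal difference depends on the water. No source used here gives the antibiotics, their dose and duration, the composition of the slurries, or the age and sex of the mice. The labels do not say that each replicate is a separate mouse. If it is not, the p-values measure only the spread between these samples, which may be technical.

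Hours after a meal, the liver moves from releasing fuel to storing it, under insulin. Fatty acids that reach the hepatocyte bind the nuclear receptor PPAR-alpha, which pairs with RXR on direct repeats of its half-site and induces genes of fatty acid uptake, peroxisomal and mitochondrial oxidation, lipid droplets and the hormone FGF21. Dietary cholesterol and polyunsaturated fatty acids restrain the SREBP factors that drive sterol and fatty acid synthesis. Gut bacteria shape bile acids, short-chain fatty acids and microbial products in portal blood, and antibiotics deplete them.

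The 8 libraries held 9022674 to 18954655 counted reads. Values are CPM, the counts of a gene scaled to a common library size with TMM factors (trimmed mean of M-values), and they are given for replicates 1 to 4 in that order, chow first. The share of counts in 4 features that collect ribosomal RNA-like reads was 0.243% to 7.69% in the chow libraries and 0.587% to 8.23% in the fast food libraries. The tissue label was checked against 10 hepatocyte markers, whose summed level was 183900 to 248100 CPM after chow and 98580 to 179600 CPM after fast food. In bulk liver, fewer cells of a type and less RNA per cell cannot be told apart. Fast food replicate 2 stood apart from its group. On the first principal component of all 16 libraries (38.8% of the variance) it scored 45.4, among the chow antibiotic libraries (36.5 to 74.1), while the other 3 fast food libraries scored -16.1 to -10.0, nearer to the control-water libraries (-33.4 to -2.44). Its log2 CPM values had a mean Pearson correlation across genes of 0.956 with its own group and of 0.967 with the chow antibiotic libraries. For the other 3 the means were 0.971 to 0.973 and 0.945 to 0.950. Chow replicate 4 also lay apart, with the highest score (74.1), a low total (9022674 reads) and the highest neutrophil markers (101.3 CPM summed, against 4.872 to 7.165 CPM in the other chow libraries). No library was removed from the main comparison, and values without fast food replicate 2 stand beside the results.

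**Figure D1:**
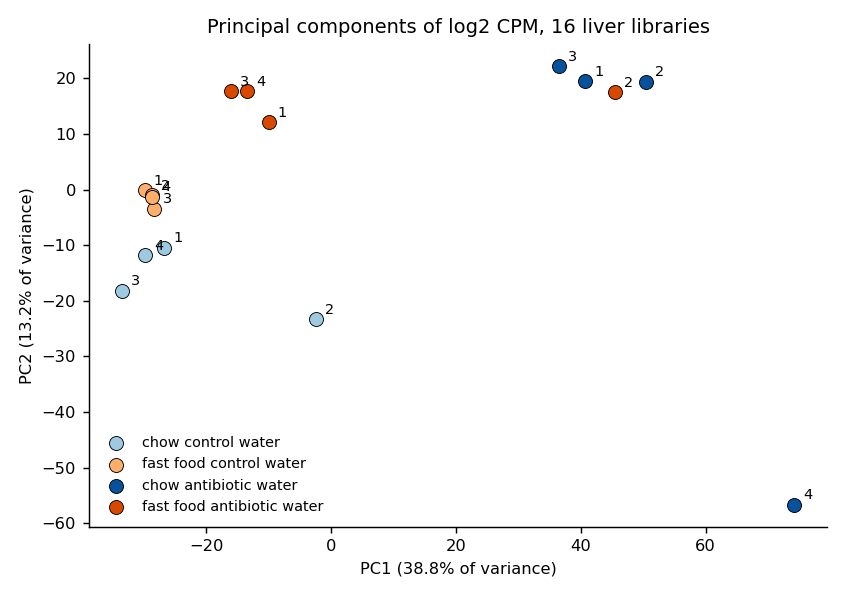
First against second principal component of log2 CPM for the 16 liver libraries, coloured by meal and drinking water and labelled with the replicate number. Fast food antibiotic replicate 2 (45.4 on the horizontal axis) lies among the chow antibiotic libraries, and its 3 group mates lie at -16.1 to -10.0.

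After fast food 1026 genes rose and 774 fell, 1800 of 13180 in all (13.7%, of which 7.78% higher and 5.87% lower; edgeR quasi-likelihood test over all 16 libraries with 1 mean per group, Benjamini-Hochberg adjusted p under 0.05). Of these, 543 differed at least 2-fold (396 higher, 147 lower) and 137 at least 4-fold (96 higher, 41 lower). In 1207 of the called genes the 4 fast food libraries did not overlap the 4 chow libraries, and 1910 of all genes tested (14.5%) showed no overlap. Without fast food replicate 2 the test called 3042 of 13358 genes (22.8%, with 11.9% higher and 10.9% lower), 1705 of the 1800 among them and all 1705 in the same direction. A fit to the 8 antibiotic libraries alone called 229 genes, 227 of them among the 1800, and the same fit without fast food replicate 2 called 2017, 1323 of them among the 1800. Leaving out 1 library gave 965 genes without chow replicate 2 and 1086, 842 and 697 without fast food replicates 1, 3 and 4. The split between rises and falls rests on the scaling, because the median log2 fold change of all genes was 0.03 with TMM factors and 0.24 with library totals, which gave 2331 higher and 271 lower genes. Changes are therefore stated relative to the average gene. Of the 137 called genes among those named by rule, 118 were also called with library totals and none turned direction. Of the same 137, 82 were called without each library in turn. Scd1 and Cidec, which the rule did not name, are not among the 137 and were not followed through these fits. Among rule-named genes described with values, Cpt1a and Mup21 lost the call without chow replicate 2, and Hsd11b1 without fast food replicate 1. Abcb4, Cyp2a5, Ifit3, Myc, Stab2 and Sult1e1 lost it without fast food replicate 3. Arntl, Atf4, Fetub, Gys2, Mcl1, Nags, Nfkbia, Pklr, Slc10a1 and Trp53inp1 lost it without fast food replicate 4. The highest edgeR adjusted p over these was 0.149, and each gene is listed under the library whose absence gave its highest p. Among the other rule-named genes in this Results section, Acot8, Aldh3a2, Atf3, Ddx58, Eci1, Gars, Gpam, Hspa1b, Itih3, Ndufa7, Nqo1, Psma2, Psmd8, Relb, Rrm2, Sesn1, Slc37a4, Tra2a, Trf and Ttr also lost the call when 1 library was left out (highest edgeR adjusted p = 0.142). Pnrc1, given only in the closing sections, lost it without chow replicate 4 (log2 fold change -0.99, edgeR adjusted p = 0.0538).

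The described genes fall into lists of liver pathways and cell markers, 1257 tested genes in 56 lists, of which 231 (18.4%) were called against 13.7% of all genes. List counts given without fast food replicate 2 compare with 11.9% of all genes called higher and 10.9% called lower in that fit. Among the pathway lists with at least 3 members called, the largest shares called higher were in peroxisomal beta-oxidation and polyunsaturated fatty acid synthesis, and the largest share called lower was in the cytosolic ribosomal proteins. The deposited table does not state how reads shared by near-identical genes were counted, so single members of the Mup, Saa, Cyp2a, Cyp2c, Cyp4a, Acaa1, Acot, Ces1 and Hspa1 families are uncertain.

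**Figure D2:**
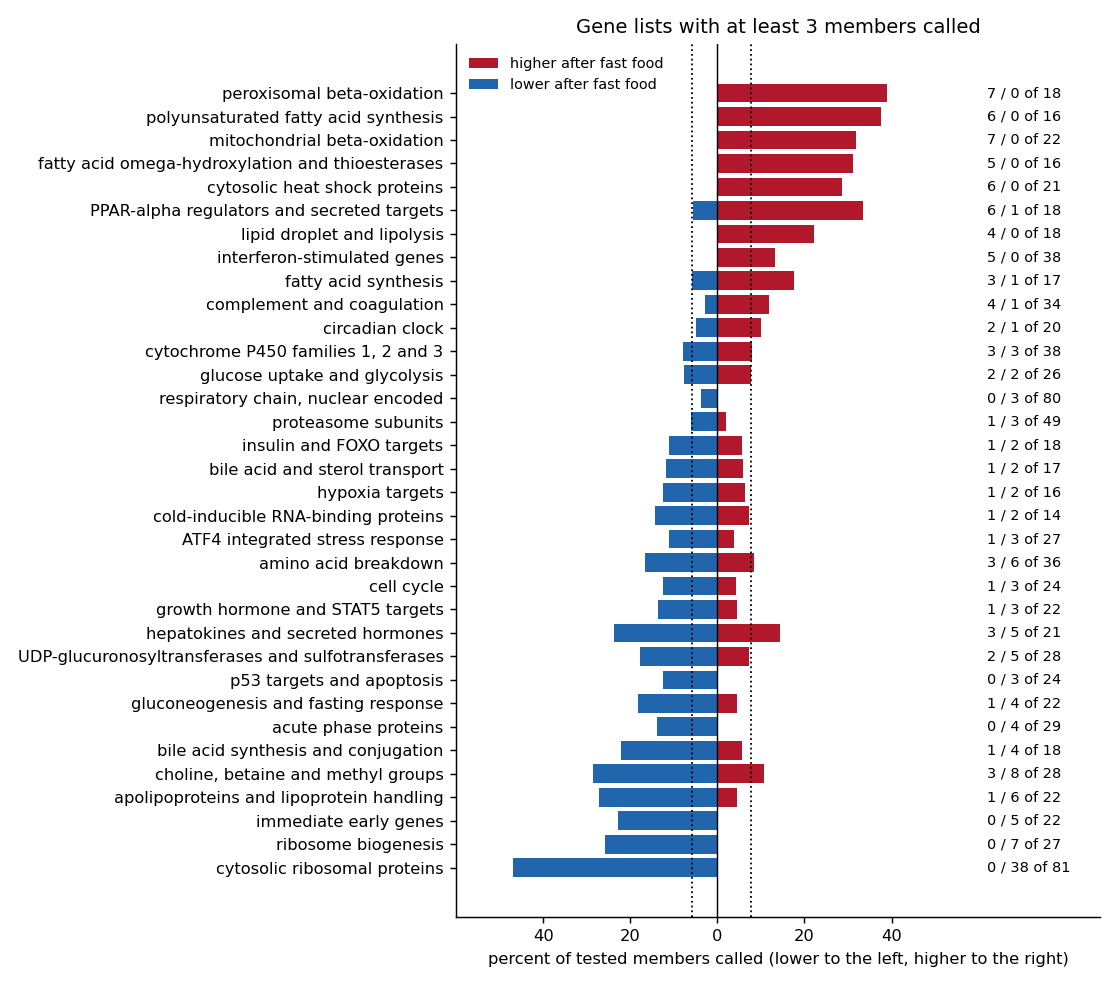
Percent of the tested members of each pathway list that rose (red, right) or fell (blue, left) after fast food with antibiotic water, for the lists with at least 3 members called, with counts of higher and lower members at the right. Dotted lines mark the shares over all genes, 7.78% higher and 5.87% lower.

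Genes that burn fatty acids rose after fast food in several lists, mostly through 3 of the 4 fast food libraries. In peroxisomal beta-oxidation, which shortens very long chains, 7 of 18 members rose and none fell (median log2 fold change 0.47, against 0.03 for all genes). Ehhadh, the bifunctional enzyme of that pathway, measured 113, 128, 228 and 192 CPM after chow and 1534, 136, 1573 and 956 CPM after fast food (log2 fold change 2.67 ± 0.55, edgeR adjusted p = 0.00969). Fast food replicates 1, 3 and 4 lay far above every chow library and replicate 2 lay among them. Acaa1b, a peroxisomal thiolase, had the same layout, with 18.0, 15.1, 52.97 and 47.9 CPM after chow and 302, 35.7, 491 and 244 CPM after fast food (log2 fold change 3.01 ± 0.62, edgeR adjusted p = 0.00991). Decr2, the peroxisomal dienoyl-CoA reductase, reached 251, 119.9, 313 and 242 CPM against 79.7, 86.7, 130.5 and 131 CPM (log2 fold change 1.12 ± 0.24).

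In mitochondrial beta-oxidation 7 of 22 members rose (Slc22a5, Eci1, Cpt1a, Hadha, Decr1, Cpt2 and Hadhb) and none fell, with a median of 0.40. Cpt1a, the enzyme that admits long chains to mitochondria, measured 517, 613, 862 and 933 CPM after chow and 1311, 739, 1397 and 1335 CPM after fast food (log2 fold change 0.71 ± 0.20, edgeR adjusted p = 0.0287). Cpt2, its partner on the inner membrane, measured 60.9, 83.0, 74.3 and 80.0 CPM after chow and 181, 81.5, 168 and 134 CPM after fast food (log2 fold change 0.92 ± 0.19). In both genes replicate 2 lay within the chow range and the other 3 fast food libraries above it. Slc22a5, the carnitine transporter, was at 16.6, 19.4, 22.2 and 38.9 CPM after chow and 61.4, 38.0, 50.8 and 45.8 CPM after fast food (log2 fold change 1.03 ± 0.22, edgeR adjusted p = 0.00883), with replicate 2 close to its group mates and just below the highest chow library. Without replicate 2, 15 of the 22 mitochondrial members and 11 of the 18 peroxisomal members passed as higher, with medians of 0.55 and 0.62.

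Omega-hydroxylases and acyl-CoA thioesterases, which handle fatty acids in excess, had 5 of 16 members higher (Aldh3a2, Acot8, Acot2, Acot4 and Cyp4f15) and none lower, with a median of 0.65. Acot2, a mitochondrial thioesterase, measured 2.11, 2.28, 2.41 and 5.40 CPM after chow and 9.75, 3.37, 12.1 and 10.3 CPM after fast food (log2 fold change 1.63 ± 0.36, edgeR adjusted p = 0.0112). Cyp4a14, a strongly PPAR-alpha-dependent hydroxylase, did not pass, at 1751, 2822, 4747 and 5255 CPM after chow and 6672, 2046, 6609 and 5576 CPM after fast food (log2 fold change 0.52 ± 0.35, edgeR adjusted p = 0.331), and its chow libraries alone differed widely. Ketone body synthesis had 1 of 8 members called, 12.5% against 13.7% of all genes. That gene, Bdh1, which interconverts the 2 ketone bodies, measured 14.2, 9.81, 26.8 and 20.6 CPM after chow and 141, 44.7, 202 and 192 CPM after fast food (log2 fold change 3.02 ± 0.40, edgeR adjusted p = 0.00110). All 4 fast food libraries exceeded all 4 chow libraries, although replicate 2 was far below its group mates.

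The receptor gene Ppara itself rose, from 74.2, 55.1, 85.5 and 31.7 CPM after chow to 206, 96.2, 239 and 195 CPM after fast food (log2 fold change 1.57 ± 0.28, edgeR adjusted p = 0.00428), with no overlap. Of the 18 regulators and secreted targets of PPAR-alpha 6 rose and 1, Lpin1, fell. Fgf21 (ENSMUSG00000030827, chromosome 7, 45613886 to 45615490, GRCm38), the fasting and fat-responsive hormone, was barely detected after chow, at 0.667, 0.525, 0.115 and 0 CPM, and measured 4.68, 0.861, 7.53 and 7.17 CPM after fast food (log2 fold change 3.77 ± 0.65, edgeR adjusted p = 0.00400). Its lowest fast food library, replicate 2, was slightly above the highest chow library in CPM and far below the other 3. At such low counts the order of replicate 2 and the highest chow library is uncertain. Mgll, monoglyceride lipase, measured 77.3, 83.6, 87.6 and 85.2 CPM after chow and 165, 84.9, 243 and 155 CPM after fast food (log2 fold change 0.96 ± 0.21, edgeR adjusted p = 0.00977), and replicate 2 lay within the chow range. Angptl4, an inhibitor of lipoprotein lipase and a classical target, overlapped between meals (log2 fold change 0.21 ± 0.29, edgeR adjusted p = 0.671).

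Fabp1 (ENSMUSG00000054422, chromosome 6, 71199827 to 71205023), the liver fatty acid-binding protein that carries fatty acids to the nucleus, had 132, 113, 250.4 and 372 CPM after chow and 1176, 389, 2253 and 1539 CPM after fast food (log2 fold change 2.63 ± 0.48, edgeR adjusted p = 0.00545). All fast food libraries exceeded all chow libraries, replicate 2 by the least. Its promoter is shown because it was 1 of 2, among 61 searched, with a match to a direct repeat of the type that PPAR-alpha binds. The 61 were tested members, with a promoter in RefSeq, of the mitochondrial and peroxisomal oxidation, omega-hydroxylase and thioesterase, ketone body and PPAR-alpha lists. Lipid droplet genes were not searched unless they were also in these lists. The motif searched was AGGNCANAGGNCA, read on the other strand as TGNCCTNTGNCCT, with no overlap with another motif. N is any base, so the 2 half-sites of a match may differ, as they do in both matches shown. It occurred in 28 of 10368 promoters of tested genes (0.27%). The second was Gdf15, a stress hormone that was not called. The lines give the 250 bases before the RefSeq start (GRCm38.p6), Fabp1 at chr6:71199629-71199878 on the plus strand and Gdf15 at chr8:70632457-70632706 on the minus strand, 5′ to 3′, with the motif in capitals.
Fabp1: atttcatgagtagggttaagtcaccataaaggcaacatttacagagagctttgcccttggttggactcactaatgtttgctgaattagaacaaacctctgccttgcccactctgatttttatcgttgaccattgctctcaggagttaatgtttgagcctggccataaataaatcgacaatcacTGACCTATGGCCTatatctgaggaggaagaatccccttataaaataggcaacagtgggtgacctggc
Gdf15: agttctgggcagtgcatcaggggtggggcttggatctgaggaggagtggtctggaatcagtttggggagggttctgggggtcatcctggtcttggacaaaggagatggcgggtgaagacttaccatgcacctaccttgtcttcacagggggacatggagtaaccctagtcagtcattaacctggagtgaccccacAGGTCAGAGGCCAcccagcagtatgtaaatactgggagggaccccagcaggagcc
The match begins at position -67 in Fabp1 and at -55 in Gdf15, counted from the start site. Of the 22 list members with a promoter that were called higher, Fabp1 was the 1 with a match. A match is a description of letters and not of binding, and a missing match says only that these letters are not in the window.

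**Figure D3:**
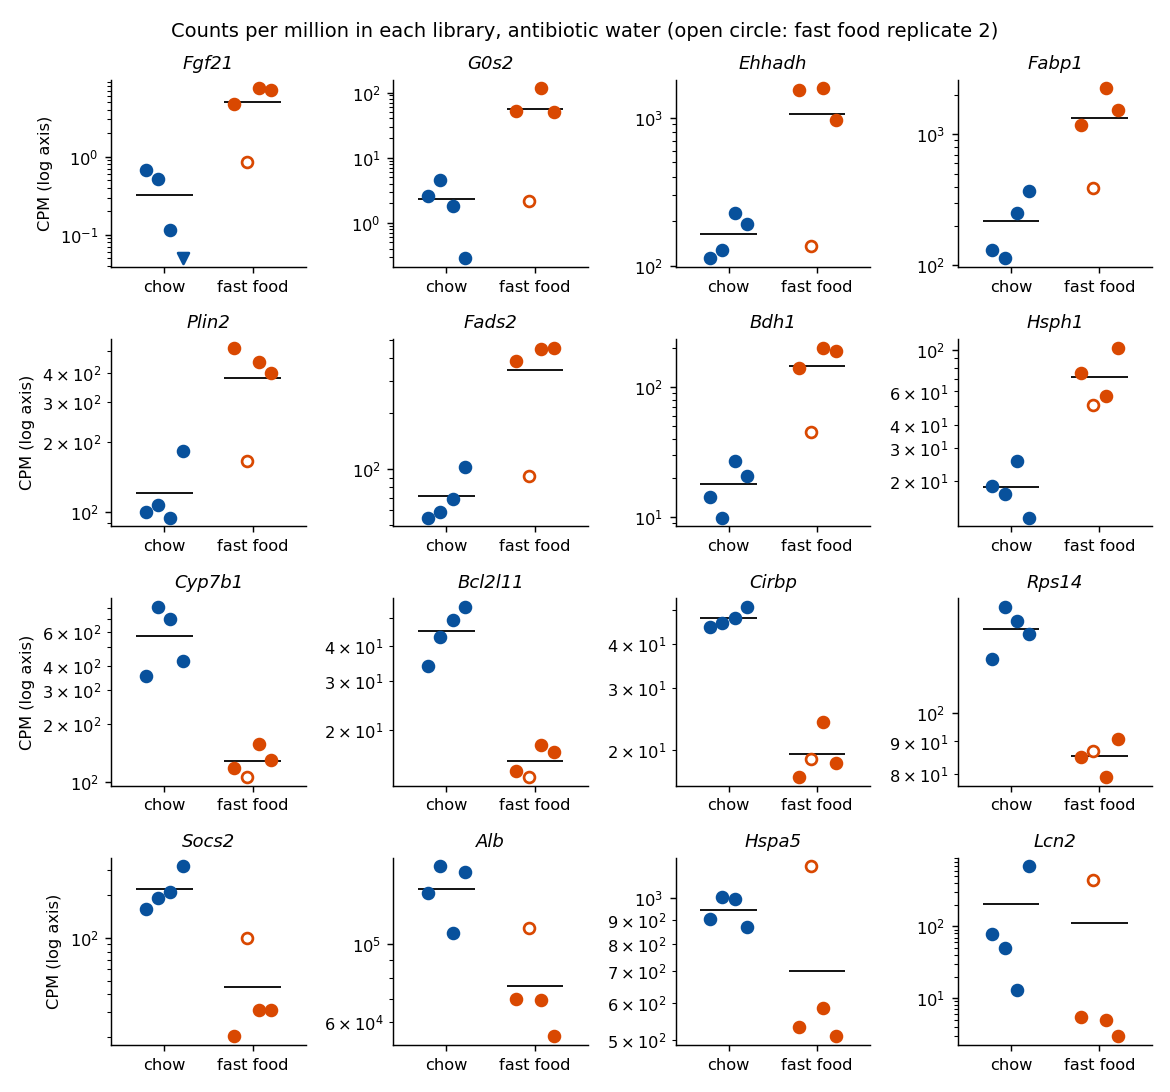
CPM on a log axis for 16 genes in each antibiotic library, in replicate order within each meal, with a line at the group mean. The open circle is fast food replicate 2 and the triangle at the foot of the Fgf21 panel is a chow library with 0 reads. Replicate 2 lies with chow for G0s2, Ehhadh, Plin2, Fads2, Hspa5 and Lcn2 and with fast food for Hsph1, Cyp7b1, Bcl2l11, Cirbp and Rps14.

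Several secreted proteins and lipid droplet genes also changed. Inhbe, which encodes the liver activin E subunit, measured 5.28, 4.55, 0.688 and 1.99 CPM after chow and 34.7, 10.6, 56.9 and 47.1 CPM after fast food (log2 fold change 3.55 ± 0.58, edgeR adjusted p = 0.00400), and Inhbc, activin C, measured 7.55, 7.01, 4.76 and 4.12 CPM after chow and 24.2, 9.33, 28.3 and 19.3 CPM after fast food (log2 fold change 1.77 ± 0.30, edgeR adjusted p = 0.00346). Neither overlapped between meals. Among 21 hepatokines 3 rose (Fgf21, Inhbe and Inhbc) and 5 fell (Fst, Ahsg, Fetub, Hamp and Selenop), or 4 and 2 with library totals as the scale. Fetub, fetuin B, fell from 562, 531, 532 and 565 CPM to 286, 523, 344 and 269 CPM, and replicate 2 lay just below the lowest chow library (log2 fold change -0.62 ± 0.17, edgeR adjusted p = 0.0275).

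Of 18 lipid droplet and lipolysis genes 4 rose (G0s2, Plin2, Cidec and Mgll) and none fell, with a median of 0.36. Plin2, the main droplet coat protein of hepatocytes, was at 99.7, 107, 94.4 and 183 CPM after chow and 515, 167, 446 and 401 CPM after fast food (log2 fold change 1.66 ± 0.29, edgeR adjusted p = 0.00400), where replicate 2 was below the highest chow library. G0s2, an inhibitor of adipose triglyceride lipase, measured 2.56, 4.55, 1.83 and 0.284 CPM after chow and 52.3, 2.15, 116 and 49.9 CPM after fast food (log2 fold change 4.52 ± 0.91, edgeR adjusted p = 0.00955), with replicate 2 within the chow range. Cidec, a protein of droplet growth, was named after its values were seen and measured 4.00, 4.20, 4.07 and 16.05 CPM after chow and 70.9, 2.51, 26.1 and 64.9 CPM after fast food (log2 fold change 2.63 ± 0.79, edgeR adjusted p = 0.0448). Its replicate 2 was below every chow library. Without replicate 2, 8 members passed as higher.

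Synthesis of long polyunsaturated fatty acids had 6 of 16 members higher (Fads1, Fads2, Fads3, Elovl2, Elovl5 and Hacd3) and none lower, with a median of 0.43. Fads2, the delta-6 desaturase, measured 54.7, 58.6, 69.2 and 103 CPM after chow and 385, 91.9, 444 and 454 CPM after fast food (log2 fold change 2.27 ± 0.38, edgeR adjusted p = 0.00388). Elovl5 and Elovl2 are elongases of the same path. Elovl5 measured 95.4, 105, 183 and 197 CPM after chow and 914, 137, 806 and 752 CPM after fast food (log2 fold change 2.17 ± 0.43), and Elovl2 measured 149, 98.4, 237 and 315 CPM after chow and 857, 266, 845 and 1086 CPM after fast food (log2 fold change 1.93 ± 0.37). In all 3 genes replicate 2 lay within the chow range and its group mates lay far above the highest chow library. Without it the log2 fold change was 2.58 (edgeR adjusted p = 2.14e-06) for Fads2 and 2.498 (edgeR adjusted p = 5.01e-06) for Elovl5.

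Fatty acid synthesis was mixed, with 3 of 17 members higher (Gpam, Scd1 and Acacb) and 1 lower (Pklr). Acacb, the acetyl-CoA carboxylase whose product blocks carnitine transfer, measured 57.0, 45.5, 68.3 and 59.8 CPM after chow and 161, 77.6, 113 and 99.7 CPM after fast food (log2 fold change 0.97 ± 0.20, edgeR adjusted p = 0.00738). Scd1, the delta-9 desaturase, was named after its values were seen, at 112, 44.4, 508 and 73.8 CPM after chow and 1264, 95.0, 4470.0 and 1421 CPM after fast food (log2 fold change 3.29 ± 1.02, edgeR adjusted p = 0.0493), a wide range in both groups. Fasn and Srebf1 did not pass, at log2 fold changes of -0.58 ± 0.34 and -0.30 ± 0.23. Pklr, the liver pyruvate kinase and a target of the sugar sensor ChREBP, fell from 174, 166, 109 and 61.1 CPM to 20.3, 82.9, 51.9 and 22.4 CPM (log2 fold change -1.52 ± 0.43, edgeR adjusted p = 0.0339), with overlap.

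Cholesterol synthesis and uptake was the list whose count of calls moved most when fast food replicate 2 was left out. With all libraries 0 of 26 members passed in edgeR (median -0.65), although 6 had an unadjusted p under 0.05 and DESeq2 called 3 lower. Without replicate 2, 17 passed as lower (median -1.15). Hmgcs1, an early enzyme of cholesterol synthesis, measured 554, 456, 305 and 231 CPM after chow and 63.8, 509.5, 213 and 106 CPM after fast food, and its log2 fold change moved from -0.79 ± 0.49 to -1.61 (edgeR adjusted p = 0.00810). Fast food replicate 2 was the highest fast food library, at the level of chow replicates 1 and 2.

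Of 22 apolipoprotein and lipoprotein genes 6 fell (Apoh, Apoa2, Apom, Apoa5, Apoc3 and Apoa1) and 1, Lrp1, rose, but with library totals as the scale 3 were lower and 5 higher. Apoc3, an inhibitor of triglyceride clearance, measured 1367, 1672, 1406 and 1340.4 CPM after chow and 784, 1085, 777 and 634 CPM after fast food (log2 fold change -0.82 ± 0.18, edgeR adjusted p = 0.00948). Apoh and Apoa2 fell by similar amounts, with log2 fold changes of -0.87 ± 0.15 and -0.73 ± 0.16. Replicate 2 was the highest of the fast food libraries in these 3 genes and still below every chow library.

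Among bile acid enzymes Cyp7b1, the oxysterol 7-alpha-hydroxylase of the alternative pathway, fell in every fast food library. It (ENSMUSG00000039519, chromosome 3, 18071950 to 18243338) measured 355, 806, 697 and 422 CPM after chow and 119, 106, 157 and 129.96 CPM after fast food (log2 fold change -2.16 ± 0.28, edgeR adjusted p = 0.000695). Here replicate 2 was the lowest fast food library, unlike at the oxidation genes. Cyp27a1, which opens the same pathway, fell from 572, 619, 649 and 563 CPM to 446, 404, 409 and 243 CPM (log2 fold change -0.68 ± 0.15, edgeR adjusted p = 0.00958). Baat, the enzyme that conjugates bile acids, fell with a log2 fold change of -0.78 ± 0.15, and in total 4 of 18 members fell and 1, Akr1c6, rose, against 4 and 4 with library totals as the scale. Cyp7a1, the rate-limiting enzyme of the classical pathway, spanned 290.3, 317, 927 and 24.3 CPM after chow and 314, 73.8, 609.6 and 414 CPM after fast food and did not pass (log2 fold change -0.14 ± 0.99, edgeR adjusted p = 0.941). Cyp8b1, which sets the cholic acid share, measured 53.2, 139, 140.2 and 74.7 CPM after chow and 536, 21.03, 548 and 344 CPM after fast food (log2 fold change 1.83 ± 0.67, edgeR adjusted p = 0.0835). Without replicate 2, the lowest of the 8 antibiotic libraries, its log2 fold change was 2.22 (edgeR adjusted p = 0.000659).

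Of 17 bile acid and sterol transport genes 1 rose and 2 fell, 17.6% called against 13.7% of all genes. With library totals as the scale 3 rose and none fell. Abcb4, the phospholipid exporter of the canaliculus, measured 292, 294, 392 and 385 CPM after chow and 571, 295, 623 and 583 CPM after fast food (log2 fold change 0.60 ± 0.19, edgeR adjusted p = 0.0431), with replicate 2 in the chow range. Slc10a1, the sodium-dependent bile acid importer, fell from 972, 1038, 865 and 829 CPM to 480.3, 691, 767 and 623 CPM (log2 fold change -0.53 ± 0.14). Klb, the co-receptor for FGF15 and FGF21, fell from 90.8, 118, 119.7 and 119 CPM to 67.3, 45.6, 78.2 and 81.9 CPM (log2 fold change -0.71 ± 0.17, edgeR adjusted p = 0.0132), and in Klb replicate 2 was the lowest of the 8 antibiotic libraries.

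Genes of glucose uptake and glycolysis were called at 15.4% and those of gluconeogenesis and fasting at 22.7%, against 13.7% of all genes. Of 26 genes of glucose uptake and glycolysis 2 rose (Pfkl and Pfkfb2) and 2 fell (Tkt and Khk), or 3 and 1 with library totals as the scale. Khk, the fructose-phosphorylating enzyme, fell from 263, 234, 188 and 199 CPM to 80.8, 161, 140.0 and 62.8 CPM (log2 fold change -0.99 ± 0.24, edgeR adjusted p = 0.0158), and Tkt, transketolase, fell with a log2 fold change of -0.54 ± 0.11. Of 22 genes of gluconeogenesis and fasting 1 rose and 4 fell (Pygl, Nr4a1, Got1 and Slc37a4), or 3 and 2 with library totals. Gys2, the liver glycogen synthase, rose, at 167, 138, 229 and 228 CPM after chow and 470.4, 187, 469 and 789 CPM after fast food (log2 fold change 1.33 ± 0.33, edgeR adjusted p = 0.0190), with replicate 2 in the chow range. Got1, the cytosolic aspartate aminotransferase, had 948, 2329, 2399.6 and 2282 CPM after chow and 1046, 597, 583 and 928 CPM after fast food (log2 fold change -1.34 ± 0.29, edgeR adjusted p = 0.00991), and its lowest chow library, replicate 1, met the fast food range. Pck1 and G6pc, the defining enzymes of gluconeogenesis, overlapped between meals, with log2 fold changes of 0.31 ± 0.39 and -0.63 ± 0.63 that did not pass (adjusted p = 0.630 and 0.533 in edgeR).

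Igfbp1, an insulin-repressed binding protein, measured 1382, 1550.0, 3439.6 and 2969 CPM after chow and 624, 1479, 89.5 and 238 CPM after fast food (log2 fold change -1.94 ± 0.80, edgeR adjusted p = 0.123). Replicates 1, 3 and 4 were below all chow libraries and replicate 2 was not, and without it the log2 fold change was -2.89 (edgeR adjusted p = 0.0275). Of 17 glucocorticoid targets 2 fell (11.8% called, against 13.7% of all genes, 5.87% lower), and without replicate 2 8 passed as lower. Those 2 were Hsd11b1, which regenerates active glucocorticoid (log2 fold change -0.76 ± 0.20, edgeR adjusted p = 0.0196), and Sult1e1, the estrogen sulfotransferase (log2 fold change -2.62 ± 0.70, edgeR adjusted p = 0.0285). Pdk4, Tsc22d3 and Txnip had log2 fold changes of 0.03 ± 0.41, 0.11 ± 0.61 and 0.24 ± 0.46, none of them called.

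More choline and one-carbon genes fell than rose with TMM factors. Of 28 members 8 fell (Pemt, Gnmt, Chka, Ahcy, Mat1a, Dmgdh and Bhmt2 among them) and 3 rose (Chdh, Gamt and Shmt2), while with library totals as the scale 4 were lower and 4 higher. Gnmt, the main methyl group sink of liver, fell in all 4 fast food libraries, from 2177, 2947, 1940.1 and 1958 CPM to 1746, 1433, 1254 and 1300.4 CPM (log2 fold change -0.65 ± 0.15, edgeR adjusted p = 0.0113). Dmgdh, which demethylates dimethylglycine, fell from 1815, 1826, 1293 and 1299 CPM to 591, 1103, 809 and 481 CPM (log2 fold change -1.06 ± 0.20, edgeR adjusted p = 0.00545). Chdh, choline dehydrogenase, rose in contrast (log2 fold change 0.82 ± 0.16).

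Amino acid breakdown had 6 of 36 members lower (Prodh, Cbs, Got1, Tdo2, Fah and Cdo1) and 3 higher (Bcat2, Ido2 and Kmo). With library totals as the scale 3 were lower and 7 higher. Cdo1, which commits cysteine to taurine, fell from 3005, 3334, 2941 and 3326 CPM to 1963, 2053, 1608 and 1559 CPM (log2 fold change -0.81 ± 0.12, edgeR adjusted p = 0.00130). Ido2, of tryptophan breakdown, rose from 18.0, 14.4, 17.5 and 11.9 CPM to 29.7, 25.3, 35.4 and 34.7 CPM (log2 fold change 1.00 ± 0.15, edgeR adjusted p = 0.00129). Neither gene overlapped between meals. Of 20 urea cycle and ammonia genes Car5a, the mitochondrial carbonic anhydrase, rose (log2 fold change 1.09 ± 0.21, edgeR adjusted p = 0.00482) and Nags, which makes the activator of the cycle, fell (log2 fold change -0.45 ± 0.14, edgeR adjusted p = 0.0472). The share called was 10%, against 13.7% of all genes, and with library totals as the scale 6 of the 20 rose and none fell.

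Cytochromes P450 of families 1, 2 and 3, which oxidise drugs and other foreign compounds, were called at a share near that of all genes (15.8% against 13.7%). Of 38 members 3 rose and 3 fell, but with library totals as the scale 8 rose and none fell. Cyp2a5, a coumarin hydroxylase, measured 89.8, 91.1, 141 and 85.2 CPM after chow and 238, 267, 313 and 185 CPM after fast food (log2 fold change 1.3 ± 0.31, edgeR adjusted p = 0.0160), with all 4 fast food libraries above all chow libraries. Of 28 conjugating enzymes 2 rose and 5 fell, or 2 and 4 with library totals. Papss2, which makes the sulfate donor, rose from 70.0, 72.2, 104 and 76.3 CPM to 166, 127, 212 and 187 CPM (log2 fold change 1.10 ± 0.19, edgeR adjusted p = 0.00299), while Sult1b1, a sulfotransferase, fell from 69.4, 94.9, 77.2 and 51.1 CPM to 19.4, 47.2, 35.2 and 24.6 CPM (log2 fold change -1.21 ± 0.25, edgeR adjusted p = 0.00776). Ugt2a3, a glucuronosyltransferase, fell too (log2 fold change -0.84 ± 0.13), as did Gstt3 (log2 fold change -1.68 ± 0.29). Gstt3 was the 1 member called of 21 glutathione transferases, 4.76% against 13.7% of all genes. Of 18 NRF2 genes Hmox1, heme oxygenase, and Nqo1, a quinone reductase, fell, 11.1% called against 13.7% of all genes. Hmox1 measured 49.8, 49.0, 49.0 and 158 CPM after chow and 19.4, 25.2, 13.8 and 13.2 CPM after fast food (log2 fold change -2.09 ± 0.40, edgeR adjusted p = 0.00709), and chow replicate 4 was the highest of the 8 antibiotic libraries. Without that library its log2 fold change was -1.49.

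Cytosolic ribosomal proteins are the protein parts of the translating ribosome. Of 81 members 38 fell and none rose, 75 of 81 had a negative log2 fold change, and the median was -0.44. With library totals as the scale 12 fell and the median was -0.23. Rps14 measured 122, 147, 140.1 and 133 CPM after chow and 85.0, 86.9, 79.0 and 90.9 CPM after fast food (log2 fold change -0.67 ± 0.11, edgeR adjusted p = 0.00200), and Rpl37a fell with a log2 fold change of -0.74 ± 0.13. In both genes all 4 fast food libraries, replicate 2 included, lay below all 4 chow libraries. Of 27 ribosome biogenesis genes 7 fell and none rose, and 1 fell with library totals as the scale. Npm1, nucleophosmin, measured 90.6, 82.5, 92.3 and 87.8 CPM after chow and 60.3, 56.4, 54.2 and 54.3 CPM after fast food (log2 fold change -0.65 ± 0.09, edgeR adjusted p = 0.000695), again without overlap.

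Cytosolic heat shock proteins, the chaperones induced by HSF1, had 6 of 21 members higher (Chordc1, Stip1, Dnaja1, Hsph1, Fkbp4 and Hspa1b) and none lower, with a median of 0.32. Hsph1, the HSP110 chaperone, measured 18.8, 17.1, 25.7 and 12.8 CPM after chow and 75.1, 51.0, 57.0 and 103 CPM after fast food (log2 fold change 1.93 ± 0.33, edgeR adjusted p = 0.00428). Dnaja1, an HSP40 co-chaperone, measured 44.4, 43.3, 48.6 and 38.6 CPM after chow and 74.8, 77.5, 94.5 and 110.1 CPM after fast food (log2 fold change 1.03 ± 0.13, edgeR adjusted p = 0.000530), and Fkbp4, a co-chaperone of HSP90, rose with a log2 fold change of 0.88 ± 0.17. In all 3 genes replicate 2 lay with its group. Cirbp, the cold-inducible RNA-binding protein that falls when body temperature rises, went from 44.8, 46.1, 47.7 and 51.1 CPM to 16.7, 18.9, 24.1 and 18.3 CPM (log2 fold change -1.28 ± 0.16, edgeR adjusted p = 0.000691). Its 2 groups were separated by a gap wider than the spread within either. Of the 14 cold-inducible genes 2 fell and 1, Tra2a, rose.

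Bcl2l11 (ENSMUSG00000027381, chromosome 2, 128126038 to 128162547), which encodes the pro-apoptotic protein BIM, had the lowest adjusted p among the named genes. It measured 33.8, 42.8, 49.5 and 55.0 CPM after chow and 14.2, 13.6, 17.6 and 16.7 CPM after fast food (log2 fold change -1.54 ± 0.14, edgeR adjusted p = 3.66e-05), replicate 2 was the lowest of the 8 antibiotic libraries, and it was called without each library in turn. Of 24 p53 and apoptosis genes 3 fell (Bcl2l11, Sesn1 and Mcl1) and none rose, 12.5% called against 13.7% of all genes (5.87% lower). Mcl1, an anti-apoptotic family member, measured 131, 122, 141 and 209 CPM after chow and 82.9, 132, 82.4 and 87.3 CPM after fast food (log2 fold change -0.65 ± 0.17, edgeR adjusted p = 0.0237), and there replicate 2 lay within the chow range. Nfe2l1, the transcription factor of proteasome genes, rose from 52.9, 54.1, 52.2 and 48.3 CPM to 111, 83.4, 102 and 93.0 CPM (log2 fold change 0.91 ± 0.10, edgeR adjusted p = 0.000196), without overlap. Of 49 proteasome list members, Nfe2l1 included, no other rose and 3 fell (Psma2, Psmc1 and Psmd8), none of which fell with library totals as the scale. In all 8.16% of the list was called, against 13.7% of all genes.

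Immediate early genes, the transient first transcripts after stimulation, had 5 of 22 members lower (Ier3, Myc, Nr4a1, Atf3 and Ier2) and none higher, with a median of -1.40. Without replicate 2, 14 were lower. Myc measured 10.1, 13.8, 49.1 and 21.7 CPM after chow and 4.68, 5.17, 5.72 and 6.13 CPM after fast food (log2 fold change -2.13 ± 0.54, edgeR adjusted p = 0.0217), with replicate 2 at the level of its group. Ier2 measured 28.7, 28.7, 24.2 and 74.8 CPM after chow and 9.25, 20.96, 8.77 and 7.73 CPM after fast food (log2 fold change -1.72 ± 0.39, edgeR adjusted p = 0.0133), where chow replicate 4 was far above the others. Fos was lower in each fast food library than in each chow library but did not pass (log2 fold change -1.51 ± 0.57, edgeR adjusted p = 0.0863). Of 25 NF-kappaB and cytokine genes 2 fell, Relb and Nfkbia, 8% called against 13.7% of all genes (5.87% lower). Nfkbia, the inhibitor that NF-kappaB induces, measured 61.1, 62.2, 59.7 and 416 CPM after chow and 39.6, 48.5, 32.1 and 27.6 CPM after fast food (log2 fold change -2.01 ± 0.61, edgeR adjusted p = 0.0460), and without chow replicate 4, the high library, its log2 fold change was -0.75 and its edgeR adjusted p 0.111. Atf3 and Relb lost the call without that library too, with log2 fold changes of -1.81 (edgeR adjusted p = 0.115, against -3.08 ± 0.90 with it) and -0.99 (edgeR adjusted p = 0.141, against -3.22 ± 0.96 with it).

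Acute phase proteins are secreted by hepatocytes on inflammatory signals, and Lcn2 and Saa1 among them were high in 1 library of each group. Lcn2, lipocalin 2, measured 78.4, 49.7, 12.8 and 689 CPM after chow and 5.47, 438, 4.90 and 2.92 CPM after fast food (log2 fold change -0.87 ± 1.68, edgeR adjusted p = 0.764). Saa1, serum amyloid A, measured 83.8, 35.1, 6.25 and 1198 CPM after chow and 23.5, 1398, 20.2 and 9.05 CPM after fast food (log2 fold change 0.14 ± 1.76, edgeR adjusted p = 0.970). Chow replicate 4 and fast food replicate 2 exceeded the other 6 antibiotic libraries in both genes. Of 29 members 4 fell (Cp, Itih3, Hamp and Serpina3k), 13.8% called against 13.7% of all genes (5.87% lower). Without replicate 2, 19 passed as lower, with the median going from -0.85 to -1.68. Serpina3k, a secreted serine protease inhibitor, had replicate 2 among its group mates, at 15805, 25139, 20793 and 16359 CPM after chow and 11016, 10424, 8176 and 6811 CPM after fast food (log2 fold change -1.10 ± 0.20, edgeR adjusted p = 0.00428). Cp, ceruloplasmin, fell from 3414, 2963, 2325 and 4076 CPM to 1323, 2528, 1419 and 1132 CPM (log2 fold change -0.997 ± 0.21, edgeR adjusted p = 0.00796). Neutrophil markers were highest in the same 2 libraries of their groups. Over the 13 members of that list in the table, 6 of them tested, the chow libraries summed to 7.165, 6.569, 4.872 and 101.3 CPM and the fast food libraries to 2.886, 11.41, 1.959 and 1.792 CPM, and the part of these cells in the result was not tested.

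Endoplasmic reticulum chaperones had 0 of 28 members called by edgeR with all libraries (2 at an unadjusted p under 0.05, and 1 called lower by DESeq2), and 9 lower without replicate 2. Hspa5, the lumenal chaperone BiP, measured 905, 1005, 995 and 870.4 CPM after chow and 532, 1170.2, 586 and 508 CPM after fast food (log2 fold change -0.43 ± 0.30, edgeR adjusted p = 0.356), and replicate 2 was the highest of the 8 antibiotic libraries. Without it the log2 fold change was -0.81 (edgeR adjusted p = 0.0409). Of 27 targets of the integrated stress response 3 fell (Slc3a2, Gars and Atf4) and 1, Fgf21, rose, 14.8% called against 13.7% of all genes. Atf4, its transcription factor, measured 97.0, 124, 147 and 123 CPM after chow and 65.8, 114, 56.2 and 56.2 CPM after fast food (log2 fold change -0.75 ± 0.20, edgeR adjusted p = 0.0259). Ddit3, the stress factor CHOP, did not pass (log2 fold change 0.47 ± 0.28).

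Growth hormone targets were mixed, with 1 of 22 members higher and 3 lower (Socs2, Cyp7b1 and Serpina12), or 4 and 3 with library totals as the scale. With TMM factors 18.2% of this list was called, against 13.7% of all genes. Socs2, the feedback inhibitor of the growth hormone receptor, measured 159.6, 190.4, 209.7 and 318 CPM after chow and 20.3, 99.2, 31.1 and 30.9 CPM after fast food (log2 fold change -2.27 ± 0.51, edgeR adjusted p = 0.0138), with replicate 2 between the groups. Igf1, the main circulating product, measured 976, 1189.9, 1057 and 1295 CPM after chow and 533, 1125, 824 and 685 CPM after fast food and did not pass (log2 fold change -0.51 ± 0.18, edgeR adjusted p = 0.0717). Of 17 major urinary protein genes 2 rose, 11.8% called against 13.7% of all genes. All 17 had a positive log2 fold change (median 0.98), but near-identical members may share reads. Their median log2 difference from the chow mean was -0.39, -0.08, 1.06 and -0.60 after chow. After fast food it was 1.46, -0.69, 1.97 and -0.04, so the groups overlapped. In control water the median log2 fold change of the list was 1.05. Mup21 measured 6.00, 2.63, 9.34 and 4.69 CPM after chow and 114, 2.80, 63.5 and 44.3 CPM after fast food (log2 fold change 3.27 ± 0.76, edgeR adjusted p = 0.0169), with replicate 2 in the chow range.

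Among clock genes Per2, a repressor of the loop, rose from 23.9, 19.1, 22.9 and 13.9 CPM to 37.6, 32.4, 39.8 and 36.5 CPM (log2 fold change 0.86 ± 0.17, edgeR adjusted p = 0.00554), Bhlhe41 rose, and Arntl, which encodes BMAL1, fell from 19.5, 30.4, 11.6 and 12.2 CPM to 7.46, 8.47, 3.40 and 3.77 CPM (log2 fold change -1.68 ± 0.45, edgeR adjusted p = 0.0263). In total 2 of 20 rose and 1 fell, 15% called against 13.7% of all genes. Dbp, an output gene, did not pass (log2 fold change 1.69 ± 0.57, edgeR adjusted p = 0.0658). Interferon-stimulated genes had 5 of 38 members higher (Ifi44, Oasl2, Ddx58, Ifit3b and Ifit3) and none lower, with a median of 0.42. The share called was 13.2%, against 13.7% of all genes (7.78% higher). Ifit3 measured 1.28, 1.05, 1.38 and 2.27 CPM after chow and 4.08, 1.36, 4.49 and 4.53 CPM after fast food (log2 fold change 1.33 ± 0.38, edgeR adjusted p = 0.0318), with replicate 2 in the chow range.

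Respiratory chain and mitochondrial ribosome genes gave few calls. Of 80 nuclear-encoded respiratory chain genes 3 fell (Cox7a2l and Ndufa7 among them) and none rose, 3.75% of the list against 13.7% of all genes. With library totals as the scale none of the 80 fell and 2 rose. Of 78 mitochondrial ribosomal proteins 0 were called by edgeR, with 8 at an unadjusted p under 0.05. DESeq2 called 2 lower, library totals as the scale gave 7 higher, and 2 were higher without replicate 2. Cell cycle genes had 3 of 24 members lower (Rrm2, Pcna and Mcm3) and 1 higher (Ccnd1), 16.7% called against 13.7% of all genes.

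Markers of the cell types of liver were counted in the same fit. Of 10 hepatocyte markers 6 fell (Alb, Apoa1, Trf, Ttr, Serpina1a and Serpina1c) and none rose, and 3 fell with library totals as the scale. Alb, serum albumin, measured 139161, 165657, 107018 and 159228 CPM after chow and 69822, 110746, 69312 and 54689 CPM after fast food (log2 fold change -0.91 ± 0.20, edgeR adjusted p = 0.00900), with replicate 2 just inside the chow range. Stellate cell and collagen markers had 6 of 19 higher and none lower, at low levels for most. Col3a1, a fibrillar collagen, measured 4.17, 2.80, 5.56 and 2.13 CPM after chow and 18.2, 6.03, 11.4 and 18.2 CPM after fast food (log2 fold change 1.80 ± 0.39, edgeR adjusted p = 0.0104), and the summed level of the list overlapped between meals, at 506.1 to 805.9 CPM after chow and 576.8 to 805.2 CPM after fast food. Of 14 sinusoidal endothelial markers 2 rose, the scavenger receptors Stab1 and Stab2, with log2 fold changes of 0.76 ± 0.14 and 0.40 ± 0.11. That was 14.3% called, against 13.7% of all genes. Kupffer cell, cholangiocyte and lymphocyte markers had 0 of 14, 0 of 6 and 0 of 5 members called by edgeR, with 2, 0 and 1 at an unadjusted p under 0.05. Fabp2 and Alas2, listed as gut and erythroid markers, rose with log2 fold changes of 1.92 ± 0.44 and 1.51 ± 0.33. Their levels were 108, 25.4, 123 and 156 CPM and 51.5, 15.8, 60.8 and 36.1 CPM after fast food, and in both replicate 2 was within the chow range.

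The largest changes among well-expressed genes without overlap included several outside these lists. Nat8f2, an N-acetyltransferase family member, rose from 188, 153, 242 and 189 CPM to 574, 439, 994 and 583 CPM (log2 fold change 1.75 ± 0.21, edgeR adjusted p = 0.000394). Cmah, the hydroxylase that makes N-glycolylneuraminic acid, rose from 50.0, 49.6, 68.2 and 66.9 CPM to 127, 121, 193 and 169 CPM (log2 fold change 1.38 ± 0.18, edgeR adjusted p = 0.000691). Atxn2, an RNA-binding protein, rose with a log2 fold change of 1.44 ± 0.26. Avpr1a, the vasopressin receptor of hepatocytes, fell from 48.3, 52.3, 47.2 and 51.1 CPM to 20, 30.9, 19.7 and 17.7 CPM (log2 fold change -1.17 ± 0.16, edgeR adjusted p = 0.000695), and Nox4, a NADPH oxidase, fell from 75.3, 55.0, 102 and 66.2 CPM to 25.2, 32.3, 40.8 and 23.2 CPM (log2 fold change -1.29 ± 0.19, edgeR adjusted p = 0.00119). Retreg1, a receptor for autophagy of the endoplasmic reticulum, fell with a log2 fold change of -1.94 ± 0.37, and Trp53inp1, a stress-induced autophagy protein, with -1.78 ± 0.55. Trp53inp1 measured 741, 584, 1161 and 826 CPM after chow and 207, 584, 84.1 and 92.8 CPM after fast food. Fast food replicate 2 equalled the lowest chow library at the digits given, so any separation was marginal. The other fast food libraries were far below.

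How far replicate 2 resembled each group was measured at the genes called without it. Each gene got a position on which 0 is the chow mean and 1 the mean of the other 3 fast food libraries in log2 CPM. Over 3024 genes the median position of replicate 2 was 0.28, and 66.9% of genes lay nearer to the chow mean. The same measure for replicates 1, 3 and 4, each left out in turn, gave medians of 0.93, 1.05 and 1.17, and 15.2%, 8.45% and 3.74% nearer to chow. For these the fit and the mean set at 1 included replicate 2, which lay nearer to chow. The genes placed were other sets, of 1085, 840 and 695. Their positions are therefore not on the same scale as that of replicate 2. Of the 3024 genes 1320 lay within the chow range and 486 within the range of the other fast food libraries. The position was above the midpoint at 1001 of the 3024 genes (33.1%). Of 41 lists with at least 5 genes called without replicate 2, 10 had a larger share than this and 10 had no gene above the midpoint. More than 50% lay above it in 3 of the 41 lists, with 32 of 45 ribosomal protein genes called without replicate 2 (71.1%), 5 of 8 heat shock genes (62.5%) and 3 of 5 cell cycle genes. Choline and methyl group genes (6 of 12) and amino acid breakdown genes (8 of 16) were split evenly. Among 14 lists with fewer called genes, more than 50% lay above it for the proteasome (3 of 3), the respiratory chain (3 of 4) and NRF2 genes (2 of 3). Examples of low shares were 1 of 15 mitochondrial oxidation genes (6.67%), 0 of 9 polyunsaturated fatty acid genes, 1 of 17 cholesterol genes (5.88%), 1 of 14 immediate early genes (7.14%) and 1 of 19 acute phase genes (5.26%). These shares are descriptions, since the genes of a list are not independent, and differences between lists were not tested. The position was 1.17 for Bcl2l11 and 1.03 for Cirbp, but -0.07 for Ehhadh. The cause was not tested.

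**Figure D4:**
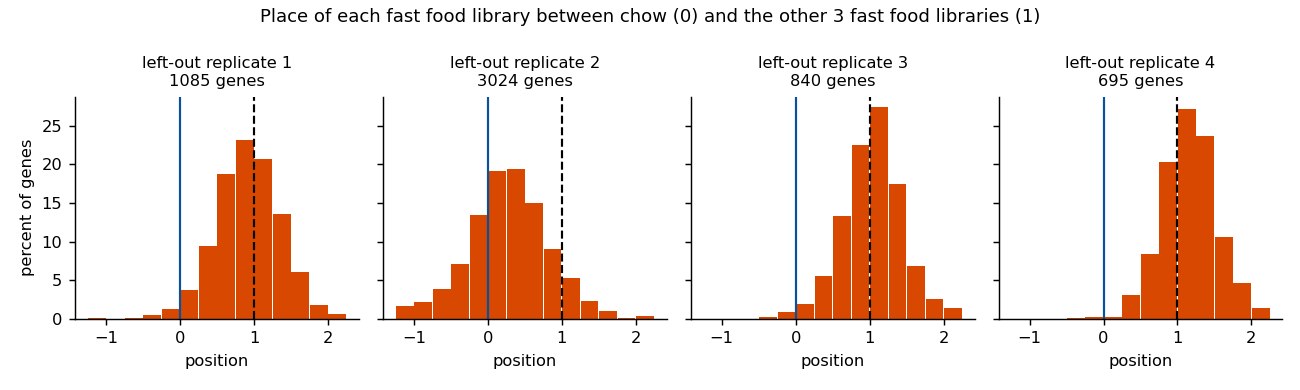
Share of genes by position of each fast food antibiotic library, left out of the fit in turn, where 0 (blue line) is the chow mean and 1 (dashed line) the mean of the other 3 fast food libraries. The bars at either end hold all values beyond -1 and 2. Replicate 2 centres on 0.28 and the others on 0.93, 1.05 and 1.17, where the mean set at 1 includes replicate 2.

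The control-water libraries give a reference outside this comparison. The score of a list in a library is the median over its members of the log2 difference from the chow antibiotic mean. For peroxisomal beta-oxidation the scores were -0.28 to 0.23 in the chow antibiotic libraries, 0.37 to 0.86 in fast food antibiotic replicates 1, 3 and 4, -0.07 in replicate 2 and 0.61 to 1.05 in the 8 control-water libraries of both meals. For immediate early genes they were -0.32 to 0.76, -1.87 to -1.16, -0.29 and -1.92 to -0.28, in that order. For cytosolic ribosomal proteins they were -0.06 to 0.06, -0.56 to -0.44, -0.31 and -0.62 to -0.23. In these lists the 3 fast food antibiotic libraries lay on the side of the control-water libraries, apart from chow control replicate 2, whose immediate early genes were within the chow antibiotic range.

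**Figure D5:**
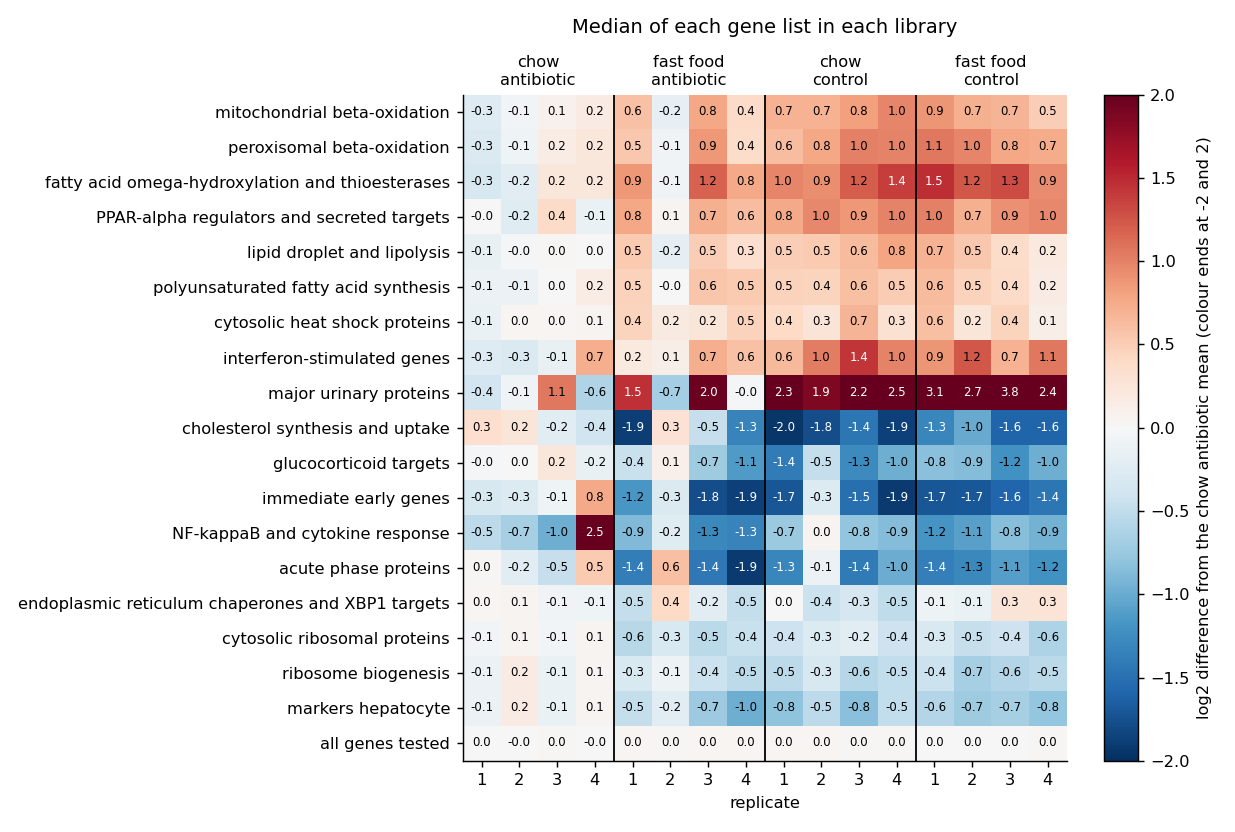
Median log2 difference from the chow antibiotic mean for 18 gene lists and all genes (rows) in the 16 libraries (columns, by group and replicate), with the value in each cell. In the rows of fat oxidation the scores of fast food antibiotic replicates 1, 3 and 4 are above 0, as in the control-water groups, and at cholesterol synthesis they are below 0. Replicate 2 is near 0 in the fat oxidation rows and below 0 at ribosomal proteins.

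In control water the same meals gave 76 called genes of 13180 (0.577%). The difference between the 2 meal effects, tested as an interaction in the same fit, passed at 519 genes (3.94%), 143 with the ribosomal RNA-like share as a covariate and 164 (without fast food replicate 4) to 1494 (without fast food replicate 2) with a library left out. For Fgf21 the antibiotic effect exceeded the control effect by 4.86 ± 0.82 (edgeR adjusted p = 0.00732) on the log2 scale, and for Plin2 by 2.52 ± 0.40 (edgeR adjusted p = 0.00493). The control-water log2 fold changes of these genes were -1.08 and -0.86. Cyp7b1 had an interaction of -3.15 ± 0.39 (edgeR adjusted p = 0.00199) and Bcl2l11 one of -1.52 ± 0.19 (edgeR adjusted p = 0.00199), against 1.00 and -0.02 in control water. For Ehhadh the interaction did not pass, at 2.59 ± 0.75 (edgeR adjusted p = 0.0672). The fit to the 8 antibiotic libraries alone, which takes nothing from control water, kept 32 of the 137 called named genes past the threshold. They include Bcl2l11, Cyp7b1, Cirbp, Bdh1, Hsph1, Dnaja1, Nfe2l1, Npm1, Rps14, Nat8f2 and Cmah and not Fgf21, Fabp1 or Fads2 (adjusted p = 0.0508, 0.0562 and 0.0533 in edgeR).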

How the data were processed

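Per the labels' protocols, mRNA libraries of 16 mouse liver samples were read as single reads of 50 bases. The authors deposited raw read counts per gene. Per the submitters' processing notes the build was GRCm38.p6 and the tools included STAR, HTSeq, cutadapt, FastQC, edgeR and DESeq2, with no version or role. No source used here gives the annotation release, the strand setting or how multi-mapped reads were counted. Of 25006 gene identifiers 24942 matched a symbol, and coordinates are those of GENCODE M21, 1-based.

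Genes were kept with filterByExpr (minimum count 10) and scaled by TMM. A robust quasi-likelihood model with 1 mean per group was fitted to all 16 libraries (edgeR 4.0.16, R 4.3.3), with two-sided tests and Benjamini-Hochberg adjustment over all genes (threshold 0.05). The SE of a log2 fold change is its absolute value divided by the square root of F. Replicates share only a number between groups, so they were not paired. Principal components, correlations and positions used log2 CPM with a prior count of 2. The method was tested on simulated counts with 200 changed genes, none of them at low counts, and no outlying library. It made 193 calls, 14 of them false, and recovered 84% of 2-fold and 95% of 4-fold changes. These recovery rates do not extend to genes of low counts. Alternatives were DESeq2 1.42.0, limma 3.58.1 voom with quality weights, RLE factors, other filters, a fit to the 2 groups, a replicate block, the ribosomal RNA-like share as a covariate or a split at 1%, and leaving libraries out. Library totals and upper quartile factors were added after seeing the data.

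The libraries compared, gene lists, naming rule and tests were chosen with earlier results of these data known. The rule took the 12 largest rises and 12 largest falls among called genes without overlap whose mean log2 CPM reached 5. It added up to 3 called members of lowest p from each list, a set of reference genes and up to 6 genes of lowest interaction p, 163 genes in all, of which 137 were called. Not every one of them is described. Scd1 and Cidec were named after their values were seen. A few genes, 6 of the 163 among them, are not reported here. Promoter sequences are from RefSeq.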

Additional observations from a re-analysis of the deposited data

Results flagged for a closer look

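Within each group of 4 libraries, the log2 CPM levels of 157 named genes were searched for 1 library far from the other 3 (Dixon's test of the gap over the range, 95% critical value). Chance flags about 1 in 20 groups. Of 314 groups 27 were found, 12 of them from fast food antibiotic replicate 2 and 7 from chow antibiotic replicate 4. Fast food replicate 2 was low for Abcb4 (295 CPM against 571 to 623 CPM in its group mates), Cpt1a (739 CPM), Cyp4a14 (2050 CPM), Cyp8b1 (21 CPM) and Elovl5 (137 CPM). It was also low for Fads2 (91.9 CPM), Gpam (88.6 CPM), Ifit3 (1.36 CPM) and Rreb1 (31.1 CPM). It was high for Hspa5 (1170 CPM), Lcn2 (438 CPM) and Mcl1 (132 CPM). Chow replicate 4 was high for Acot2 (5.4 CPM), Hmox1 (158 CPM), Ier2 (74.8 CPM), Nfkbia (416 CPM) and Pnrc1 (288 CPM), and low for Hspa1b (0.71 CPM) and Pdk4 (3.98 CPM). Chow replicate 1 was low for Acot8 (5.17 CPM), Enho (17.8 CPM), Got1 (948 CPM) and Klb (90.8 CPM). Chow replicate 3 was high for Cyp2a5 (141 CPM) and Per1 (66.6 CPM). Fast food replicate 4 was low for Cyp27a1 (243 CPM) and Txnip (104 CPM).

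The meal effect differed between the waters for 60 of these named genes, by the edgeR interaction test with an adjusted p under 0.05. Of all 13180 genes tested 519 passed (3.94%). Many named genes were chosen for a called meal effect in the same antibiotic libraries, and up to 6 for a low interaction p. The count of 60 therefore cannot be compared with the share of all genes. Values are the log2 fold change in antibiotic water minus that in control water. It was higher in antibiotic water for 31 genes. The log2 difference was 4.86 for Fgf21, 4.58 for G0s2, 4.26 for Inhbe, 3.27 for Acaa1b, 3.14 for Bdh1, 3 for Fabp1, 2.75 for Acot2 and 2.62 for Elovl5. Values nearer to 0 were 2.52 for Plin2, 2.41 for Elovl2, 2.11 for Hsph1, 1.96 for Paqr9, 1.79 for Ces1f, 1.78 for Pgm3, 1.76 for Nat8f2 and 1.64 for Atxn2. They were followed by 1.6 for Rreb1, 1.56 for Slc22a5, 1.45 for Ppara, 1.38 for Tra2a, 1.29 for Cmah, 1.26 for Mgll, 1.16 for Cpt2 and 1.14 for Dnaja1. The lowest of these differences were 1.09 for Acacb, 1.06 for Nfe2l1, 1.05 for Papss2, 1.03 for Ido2, 1.02 for Chdh, 0.912 for Stab1 and 0.585 for Stab2. It was lower in antibiotic water for the other 29 genes. The log2 difference was -5.5 for Sult1e1, -3.15 for Cyp7b1, -2.07 for Gstt3, -1.79 for Dmgdh, -1.61 for Nox4, -1.57 for Got1, -1.53 for Scarna6 and -1.53 for Sult1b1. Weaker negative values were -1.52 for Bcl2l11, -1.38 for Cirbp, -1.33 for Ugt2a3, -1.29 for Gpld1, -1.27 for Serpina3k, -1.17 for Gnmt, -1.11 for Apoc3 and -1.08 for Fetub. Next came -1.07 for Avpr1a, -1.06 for Bnip3, -1.03 for Apoh, -0.952 for Apoa2, -0.942 for Pcna, -0.94 for Cyp27a1, -0.889 for Cyp2d22 and -0.825 for Cdo1. The negative differences nearest to 0 were -0.808 for Nags, -0.68 for Rps14, -0.679 for Ndufa7, -0.653 for Npm1 and -0.636 for Cox7a2l.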

How the results depend on the processing

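The 1800 genes called became 229 in the fit to the 2 antibiotic water groups (2017 there without fast food replicate 2, with 125 named genes and 339 list members), 3206 without the 3 libraries high in acute phase transcripts in earlier results (replicate 2 of chow with control water, and on antibiotic water replicate 4 of chow and replicate 2 of fast food), 2945 with limma voom and quality weights and 1 among libraries with a ribosomal RNA-like share over 1% (2238 at an unadjusted p under 0.05 there). On antibiotic water the high-share libraries were chow replicates 2 and 4 and fast food replicates 1, 2 and 4. Both libraries that lay apart, chow replicate 4 and fast food replicate 2, were among them. Without 1 library the genes called ranged from 697 to 3042. The 137 called named genes became 32 in the 2-group fit and 0 in the high-share libraries (113 unadjusted), and 90 to 135 without 1 library. The 231 called list members became 42 in the 2-group fit, 459 without the acute phase libraries, 0 in the high-share libraries (295 unadjusted) and 422 with voom, and 118 to 432 without 1 library. The 519 interaction calls became 1107 with DESeq2, 1851 without the acute phase libraries, 143 with the share as a covariate, 1710 with voom and 856 with library totals, and 164 to 1494 without 1 library. A high-share interaction could not be fitted, because no fast food control library has a high share. The fits with fewer libraries test fewer samples, and the cause of the other shifts was not tested. Library totals called 2331 genes higher and 271 lower, DESeq2 1243 and 1168, and RLE factors 958 and 868.

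With the replicate number as a block, 1547 genes, 129 named genes, 216 list members and 355 interactions were called. Same-numbered chow and fast food antibiotic libraries did not deviate together (r across genes -0.13, -0.04, 0.19 and -0.05), and only replicate 3 correlated best with its own number.

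Over the 157 named genes reported and their alternatives, 2724 values kept direction and side of the threshold, 486 lost the call, 49 gained it and 33 turned direction, all at 8 genes that were not called. For Cyp7a1 the log2 fold change turned to 0.18 without fast food replicate 2 in the 2-group fit, 0.50 with the block, 0.38 with the share, 0.61 in high-share libraries, 0.36 with voom, 0.054 with library totals and -0.57 to 0.74 without 1 library. G6pc turned to 0.22 in high-share libraries and ranged from -1.04 to 0.0013 without 1 library. Without 1 library Lcn2 ranged from -5.54 to 1.25 and Pck1 from -0.054 to 0.73. Pdk4 turned to -0.15 without fast food replicate 2 in the 2-group fit, -0.40 without the acute phase libraries, -0.041 with the share and -0.37 with voom, and ranged from -0.23 to 0.18 without 1 library. Saa1 turned to -4.25 without fast food replicate 2 in the 2-group fit, -1.50 with the block, -1.27 without the acute phase libraries, -0.37 in high-share libraries and -1.04 with voom. Saa1 ranged from -4.24 (without fast food replicate 2) to 3.10 (without chow replicate 4). Without the acute phase libraries Tsc22d3 turned to -0.23 and Txnip to -0.11, and without 1 library they ranged from -0.27 to 0.53 and from -0.081 to 1.05.

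Depth limits low genes such as Fgf21, at 0 to 0.667 CPM after chow, and intervals of counts cover counting error only.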
